A study of Canis lupus familiaris with 33 samples.

Results

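Canine diffuse large B-cell lymphomas (DLBCL) differed widely in the transcripts of IL6 and CXCL8, and the tumours at the 2 ends of that range were compared. IL6 encodes interleukin-6 and CXCL8 encodes interleukin-8, a chemokine that draws neutrophils. From the 23 DLBCL arrays, members were chosen by rank of the mean log2 signal of both genes, called the index here: the 7 arrays of highest index (the high tumours) were set against the 7 of lowest index (the low tumours). These 14 of the 23 tumour arrays, from a series of 33 arrays, came from 14 different dogs. The other 9 tumours lay between them and are called the middle tumours. The 23 arrays came from 22 dogs, since low sample 11 and middle sample 12 were of the same dog. Because the 2 index genes chose the groups, their own values are a description and carry no test.

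Total RNA of lymph nodes was measured on Affymetrix Canine Genome 2.0 arrays. The series held 16 DLBCL arrays from treatment naive dogs, 7 from dogs that had received chemotherapy before and relapsed, and 10 arrays from nodes of 7 dogs put down for conditions other than lymphoma. The high tumours were 4 naive (DLBCL samples 5, 10, 15 and 23) and 3 relapsed (samples 3, 4 and 18). The low tumours were 5 naive (samples 1, 6, 11, 16 and 19) and 2 relapsed (samples 13 and 24). The labels gave days since treatment of 82, 672 and 76 for relapsed high samples 3, 4 and 18. For relapsed low samples 13 and 24 they gave 123 and 13 days. Dogs with high tumours were 4 females and 3 males, and dogs with low tumours were 2 females and 5 males. The labels named an analgesic for 1 dog of each group, tramadol for high sample 3 and rimadyl for low sample 16. They held no medication entry for high samples 10, 15 and 23, so that medication cannot be compared between the groups. The array carries probes in sets, called probesets, and each value is the log2 signal of 1 probeset after RMA, so that a difference of 1 is a factor of 2. For each gene the probeset with the highest mean over the 33 arrays was used. A whole biopsy was measured, so that more cells of a type and more RNA per cell cannot be told apart in any result below.

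IL-6 acts through its receptor and the shared subunit gp130 on JAK kinases and the transcription factor STAT3. It drives the acute phase response and helps B cells to become plasma cells. CXCL8 acts on receptors of neutrophils and also on endothelium. Both genes are classic targets of NF-κB, and macrophages, fibroblasts and endothelial cells, as well as some lymphoma cells, are known to make the proteins.

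In the high tumours the index was 10.42 in sample 5, 10.08 in sample 10, 9.99 in sample 18, 8.28 in sample 23, 8.27 in sample 15, 8.06 in sample 3 and 7.69 in sample 4. In the low tumours it was 5.85 in sample 19, 5.61 in sample 11, 5.59 in sample 6, 5.57 in sample 1, 5.55 in sample 24, 5.48 in sample 16 and 5.32 in sample 13. The last high tumour, at 7.69, stood barely above the first middle tumour, sample 22 at 7.67, whereas the last middle tumour, sample 2 at 6.58, was clear of the first low tumour at 5.85. The upper limit therefore cut through a continuous range, and the lower one fell in a gap.

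The groups were apart in IL6 but not fully in CXCL8. IL6 was 7.98 to 11.13 (median 9.11) in the high tumours and 4.81 to 6.65 (median 5.47) in the low tumours. CXCL8 was 5.41 to 11.73 (median 8.58) in the high tumours and 4.50 to 6.90 (median 5.64) in the low tumours, and 5 of the 7 high tumours were above all low ones. The exceptions were sample 15, which had the highest IL6 of all tumours at 11.13 and a CXCL8 of 5.41, and sample 4 with a CXCL8 of 6.77. Samples 5, 10 and 18 carried most of the CXCL8, at 11.73, 10.69 and 11.48. Over the 23 tumours the 2 genes were only loosely related, with a Pearson correlation of 0.23 and a Spearman correlation of 0.22. Leaving out samples 15 and 20, the tumours with the highest IL6, gave a Pearson correlation of 0.62 over 21 tumours. Healthy nodes had IL6 of 6.53 to 8.13 and CXCL8 of 8.15 to 9.81. Only 3 high tumours exceeded all healthy nodes in CXCL8 and 3 were below all of them, while all 7 low tumours were below every healthy node on the index.

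**Figure D1:**
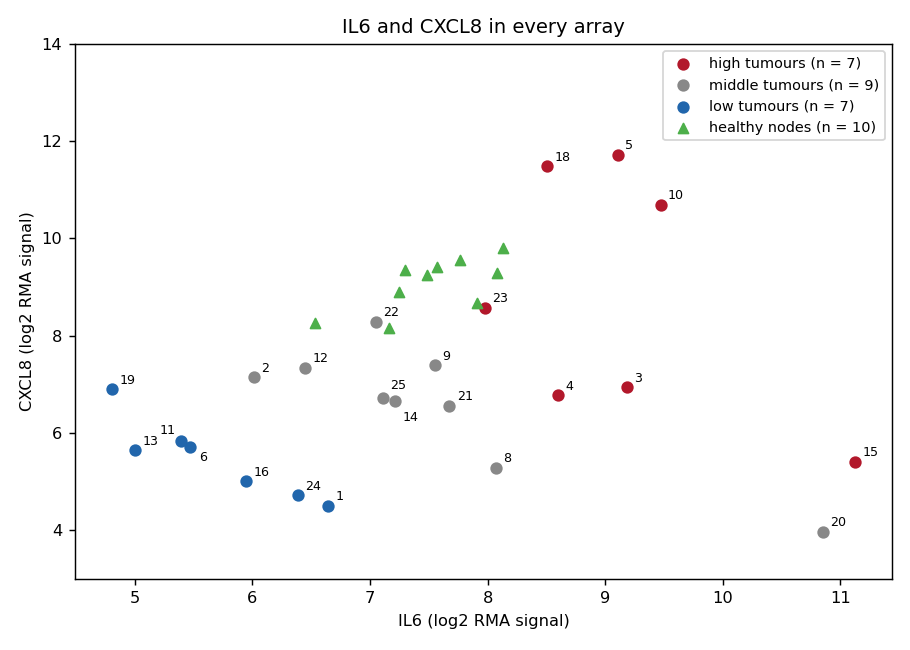
IL6 (x axis) and CXCL8 (y axis), both as log2 RMA signal, in 7 high (red), 9 middle (grey) and 7 low (blue) tumours, numbered by DLBCL sample, and in 10 healthy nodes (green triangles). Samples 5, 10 and 18 sit above the healthy nodes in CXCL8, and samples 15 and 20 have the highest IL6 with CXCL8 of 5.41 and 3.97.

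Some arrays stood apart. The mean correlation with the other 22 tumours was 0.951 for sample 5 and 0.960 for sample 18, against 0.964 to 0.979 for the other tumours. Sample 5 had a mean over 15 B cell markers of 8.50, compared with at least 10.75 in the other high and 10.95 to 11.27 in the low tumours, and a mean over 9 mast cell and basophil markers of 9.97, compared with at most 7.40 in the other high and 6.18 to 6.82 in the low tumours. Skeletal muscle markers (10 genes) averaged 9.13 in high sample 4 and 10.91 in low sample 24, against at most 7.27 in the other tumours of the 2 groups. RNA integrity number (RIN) averaged 9.59 ± 0.34 in the high and 9.70 ± 0.22 in the low tumours (SD, n = 7 each; exact permutation test, two-sided, p = 0.529). In the healthy nodes RIN was 8.8 to 9.4 in the arrays of 1 dog and 5.8 to 7.7 in those of the other dogs. RNA quality was thus not matched where healthy nodes are set beside the tumours, and those values are a description. Dogs with high tumours averaged 9.43 ± 2.39 years and dogs with low tumours 7.11 ± 2.93 years (SD, n = 7 each; exact permutation test, two-sided, p = 0.134). The array day was taken from dates in the array names that the study's supplement lists, and was known for 6 high and 5 low arrays. What these dates mark is not stated there.

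Few probesets separated the high from the low tumours past the threshold, and the named ones that rose belong to smooth muscle cells and contractile fibroblasts. Of 43031 probesets, 5 were higher (0.0116%) and 1 was lower (0.00232%) in the high tumours at a p under 0.05 in limma's moderated test after Benjamini-Hochberg adjustment over all probesets (adjusted p), while 5784 had an unadjusted p under 0.05. The 5 higher ones were those of ACTA2, of EDNRA, 2 of TAGLN and 1 without a gene symbol. The lower one was 1 of the probesets of WBP4. Read at 1 probeset a gene, 2 of 15113 genes rose (0.0132%), ACTA2 and EDNRA, and none fell. TAGLN, WBP4 and the unnamed probeset are named because the count is small, after their values were seen.

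These counts were sensitive to single tumours. Without high sample 15, 409 probesets were higher and 92 lower, and without low sample 1, 192 were higher and 45 lower. No probeset passed in either direction without high sample 18 or without low sample 6, 16 or 19, with 4839, 5668, 4877 and 5200 probesets at an unadjusted p under 0.05 in limma. Without low sample 24, 0 were higher and 1 lower (limma, 5004 at an unadjusted p under 0.05), and without low sample 13, 1 was higher and 0 lower (limma, 5134). Leaving out sample 3 or sample 4 left 3 higher and 1 lower, sample 23 gave 7 higher and 7 lower, sample 10 gave 5 higher and 3 lower, and sample 11 gave 6 higher and 5 lower. Without samples 5 and 18 together, and also without samples 5, 10 and 18, 1 probeset was higher and 0 lower (limma, 4403 and 3906 at an unadjusted p under 0.05), and none of the 6 named above was among them.

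ACTA2, the smooth muscle actin that also marks activated fibroblasts, was 10.76 in sample 5, 10.93 in sample 10, 11.44 in sample 18, 11.26 in sample 23, 11.16 in sample 15, 10.88 in sample 3 and 11.30 in sample 4 of the high tumours. It was 9.62 in sample 19, 9.81 in sample 11, 9.65 in sample 6, 10.35 in sample 1, 9.84 in sample 24, 9.81 in sample 16 and 10.38 in sample 13 of the low tumours. All high tumours thus lay above all low tumours, including sample 15 with its low CXCL8. The log2 difference was 1.18 (SE 0.15, adjusted p = 0.0238). Without sample 18 the difference still had the same sign, as it did in all 33 other analyses, where it ranged from 0.47 to 1.31 and passed the test in 17. Healthy nodes had a median ACTA2 of 12.18, above that of the high tumours (11.16).

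EDNRA encodes the endothelin A receptor, a receptor of vascular smooth muscle. Its lowest, median and highest level were 8.10, 8.93 and 9.15 in the high tumours, against 6.57, 7.28 and 8.05 in the low tumours. The gap between the groups was thin, between high sample 15 at 8.10 and low sample 1 at 8.05. EDNRA rose by 1.62 on the log2 scale (SE 0.22, adjusted p = 0.0278), and it passed in 10 of 33 other analyses. A dimmer probeset of EDNRA averaged 4.49 in the high and 4.08 in the low tumours (adjusted p = 0.432).

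TAGLN encodes transgelin, an actin-binding protein of smooth muscle and contractile fibroblasts. All 3 of its probesets were higher in every high tumour than in any low tumour. Those that passed averaged 9.90 ± 0.23 and 11.14 ± 0.28 in the high tumours and 8.67 ± 0.39 and 9.82 ± 0.44 in the low tumours (SD, n = 7 each), with log2 differences of 1.23 (adjusted p = 0.0244) and 1.32 (adjusted p = 0.0278). The brightest, at 11.62 to 12.42 in the high and 10.26 to 11.62 in the low tumours, missed the threshold (log2 difference 1.20, adjusted p = 0.0506). There the groups nearly met, with high sample 10 and low sample 1 both at 11.62 to 2 decimals. The probeset without a symbol was 9.07 to 10.08 in the high and 7.06 to 8.54 in the low tumours (log2 difference 1.71, SE 0.22, adjusted p = 0.0244).

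The single fall was at 1 probeset of WBP4, which encodes a protein of the spliceosome. It was 6.02 to 7.04 in the high and 7.31 to 8.05 in the low tumours, and fell by 1.20 on the log2 scale (SE 0.17, adjusted p = 0.0278). The 3 brighter probesets of WBP4 had log2 differences of -0.29, -0.26 and -0.38 and adjusted p of 0.351, 0.387 and 0.429, so the gene as a whole is not called.

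Of the 15113 genes, 908 (6.01%) had an unadjusted p under 0.05 and a higher mean in the high tumours, and 1183 (7.83%) had one and a lower mean. In 38 genes (0.251%) all high tumours were above all low ones, and in another 38 (0.251%) all were below. The median log2 difference over all genes was -0.03. Apart from ACTA2 and EDNRA, the 20 genes of smallest p had adjusted p of 0.0506 to 0.0664 and are given as values that did not pass. Of the 20 genes, 5 are in the fibroblast and matrix list described below (ACTA2, TAGLN, PDPN, COL1A2 and THBS2). COL1A2, a chain of type I collagen, was 12.52 to 13.35 in the high and 11.02 to 12.33 in the low tumours. PDPN, the podoplanin of reticular fibroblasts and lymphatic endothelium, was 8.84 to 10.81 in the high and 7.23 to 8.65 in the low tumours. ASPN and OMD, small leucine-rich matrix proteoglycans, had log2 differences of 1.49 and 0.92, and THBS2, a matrix thrombospondin, had one of 1.88. FSTL1, a secreted glycoprotein of mesenchymal cells, was 10.70 to 11.78 in the high and 8.85 to 10.59 in the low tumours. CCN2, the connective tissue growth factor, was 11.53 to 12.05 in the high and 9.63 to 11.58 in the low tumours.

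**Figure D2:**
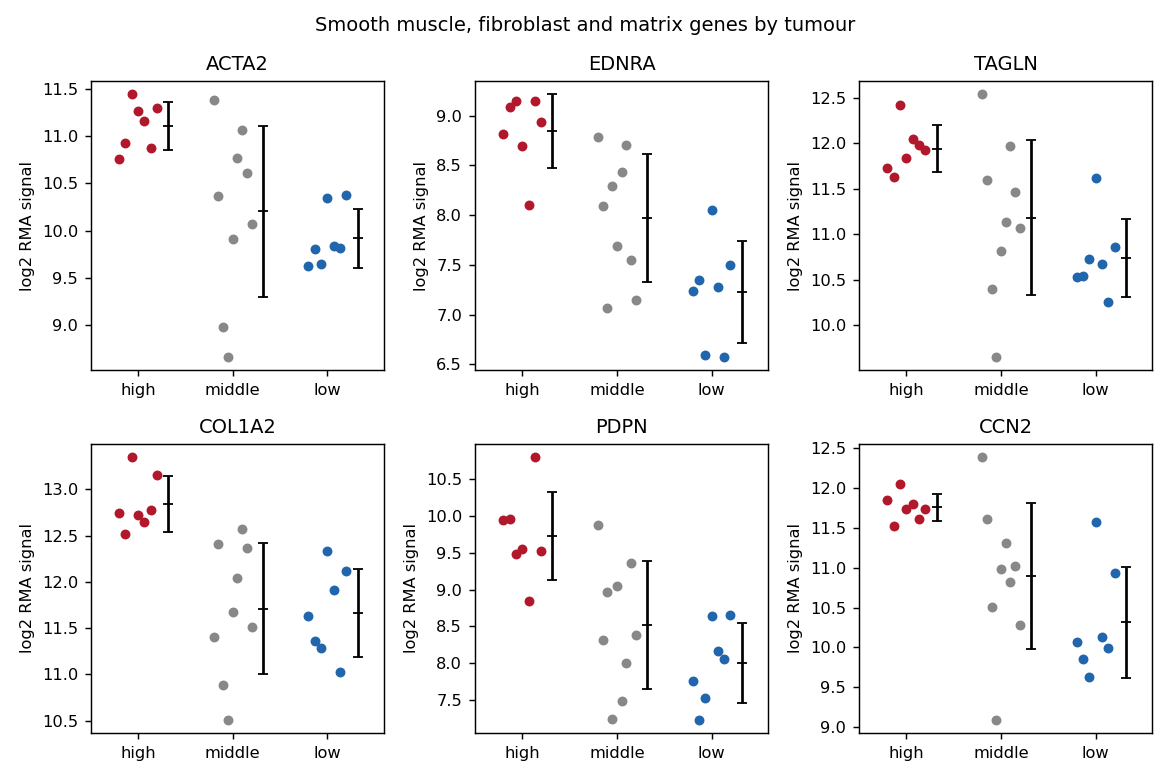
Log2 RMA signal (y axis) of ACTA2, EDNRA, TAGLN, COL1A2, PDPN and CCN2 in 7 high, 9 middle and 7 low tumours. Each point is a tumour and the bars give the mean and SD; only ACTA2 and EDNRA passed at the probeset shown, and the middle tumours spread over the range of both groups.

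The other genes among the 20 were the matrix gene MXRA5 (log2 difference 0.69), the membrane proteins CD9 (1.06), TM4SF1 (1.15) and CD59 (1.67), the metalloreductase STEAP2 (0.82) and the proline-synthesising enzyme PYCR1 (0.75). Lower in the high tumours were DOCK4, an activator of small GTPases (-1.10), PLSCR5 (-1.28), the anchoring protein AKAP3 (-0.95) and HPS4, a gene of lysosome-related organelles (-0.47). In each of these 4 the groups did not overlap. PLSCR5 was 4.70 to 5.21 in the high and 5.31 to 7.10 in the low tumours, and DOCK4 was 4.58 to 5.54 in the high and 5.55 to 6.60 in the low tumours. STEAP2 was 4.05 to 5.24 in the high and 3.55 to 4.13 in the low tumours. The 17 tag control probesets of the array had means of 2.79 to 4.56. STEAP2 in the low tumours was within that range, and the lowest PLSCR5 and DOCK4 of the high tumours were just above it. These differences therefore rest on dim signals.

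Of 30 gene lists, that of fibroblast and matrix genes was the single one with a member that passed. Of its 28 genes, 1 passed (ACTA2), 24 had an unadjusted p under 0.05 with the higher mean in the high tumours (6.01% of all genes did), and 8 had no overlap between the groups (0.251% of all genes). The median log2 difference of the list was 1.19, beside -0.03 over all genes. The 8 genes without overlap at the probeset used were COL1A2, COL3A1, COL5A1, DCN, FBLN1, PDPN, ACTA2 and TAGLN. At every other probeset of COL3A1 and PDPN the groups overlapped, as they did at a dimmer probeset of COL1A2. FBLN1, an elastic matrix glycoprotein, averaged 2.28 higher (adjusted p = 0.072), DCN, the proteoglycan decorin, 2.07 higher (adjusted p = 0.0752), and COL3A1, the collagen of reticular fibres, 1.71 higher (adjusted p = 0.0666). THY1, LOX, TNC and DPT were the members with an unadjusted p above 0.05, at log2 differences of 0.25, 0.04, 0.32 and 1.29.

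The mean of the 28 genes was 9.93 to 10.68 (median 10.43) in the high tumours and 8.58 to 10.07 (median 8.93) in the low tumours. Low sample 1 stood at 10.07, above high sample 15 at 9.93, and was the single low tumour within the high range. Without low sample 1, 18 of the 28 genes passed, without high sample 15, 14 passed, and with arrays weighted by their quality 11 passed. In these settings 192, 409 and 166 of all 43031 probesets were higher. The share of all genes that passed was not counted in them, for this list or for those below. Without sample 18, and without samples 5, 10 and 18 together, 0 passed (limma; 23 members with an unadjusted p under 0.05 in each), while the list median was 1.13 and 1.20. Among naive tumours alone, 4 against 5, 0 passed (limma; 21 with an unadjusted p under 0.05) and the median was 1.17. The healthy nodes had a mean of 9.02 to 10.66 over the 28 genes, with a median of 9.80 below every high tumour.

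In the same tumours skeletal muscle markers averaged 6.18 to 9.13 in the high and 6.42 to 10.91 in the low tumours, and 9 adipocyte markers averaged 6.25 to 10.12 in the high and 6.14 to 7.96 in the low tumours. LPL, the lipoprotein lipase of fat and macrophages, was 2.22 higher (adjusted p = 0.122), and the adipocyte genes ADIPOQ and FABP4 were 1.30 and 1.06 higher (adjusted p = 0.583 and 0.602). Of the 9 genes, 0 passed (limma), 3 had an unadjusted p under 0.05 with the higher mean in the high tumours (6.01% of all genes), and the median log2 difference was 1.13. This median was 0.65 without sample 18, and 1 gene passed without sample 15. High sample 18 was at 10.12 and high sample 23 at 9.23. The part of these tissues in the fibroblast result was not tested.

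Of 26 macrophage and monocyte genes, 0 passed (limma), 11 had an unadjusted p under 0.05 with the higher mean in the high tumours (6.01% of all genes) and 1 with the lower (7.83% of all genes), and the median log2 difference was 0.67. GPNMB, a glycoprotein of lipid-laden macrophages, was 8.91 to 11.14 in the high and 6.62 to 9.37 in the low tumours (log2 difference 1.77, adjusted p = 0.129). VSIG4, a complement receptor of tissue macrophages, was 7.44 to 8.66 in the high and 6.55 to 7.79 in the low tumours (log2 difference 0.88, adjusted p = 0.109). The scavenger receptor CD163 and the Fc receptor FCGR1A were 1.64 and 2.38 higher (adjusted p = 0.220 and 0.208), and the lower member was APOE, the lipid carrier apolipoprotein E, at -0.78 (adjusted p = 0.203). The mean over the list was 8.87 to 11.06 in the high and 9.04 to 10.15 in the low tumours, with high sample 15 below every low tumour. Without sample 15, 2 of the 26 genes passed and the median was 0.95.

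Of 24 other chemokines, 0 passed (limma), 10 had an unadjusted p under 0.05, all with the higher mean in the high tumours (6.01% of all genes), and the median log2 difference was 0.79. CCL8, which attracts monocytes, was 10.90 in sample 5, 10.60 in sample 10, 10.13 in sample 18, 8.62 in sample 23, 6.28 in sample 15, 10.10 in sample 3 and 9.29 in sample 4 of the high tumours. In the low tumours it was 6.50 in sample 19, 6.00 in sample 11, 6.10 in sample 6, 8.64 in sample 1, 6.19 in sample 24, 6.83 in sample 16 and 6.70 in sample 13. Sample 15 was thus at the low tumours' level and low sample 1 at the high tumours' level, and the log2 difference of 2.71 did not pass (SE 0.63, adjusted p = 0.0983). CCL23, another attractant of monocytes, was 7.80 to 13.62 (median 11.30) in the high and 6.27 to 10.71 (median 7.62) in the low tumours (log2 difference 3.12, SE 0.80, adjusted p = 0.125). CCL2, the main monocyte chemokine, was 11.62 to 13.78 in the high and 11.43 to 12.80 in the low tumours (log2 difference 1.17, adjusted p = 0.126). CXCL12 and CXCL13, which place B cells in the node, had differences of 0.08 and -0.15. Without sample 15, CCL8 was 3.23 higher (adjusted p = 0.0137), and 4 chemokines passed. Without samples 5, 10 and 18, CCL8 was 1.87 higher (adjusted p = 0.409), and 0 chemokines passed (limma; 4 with an unadjusted p under 0.05).

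**Figure D3:**
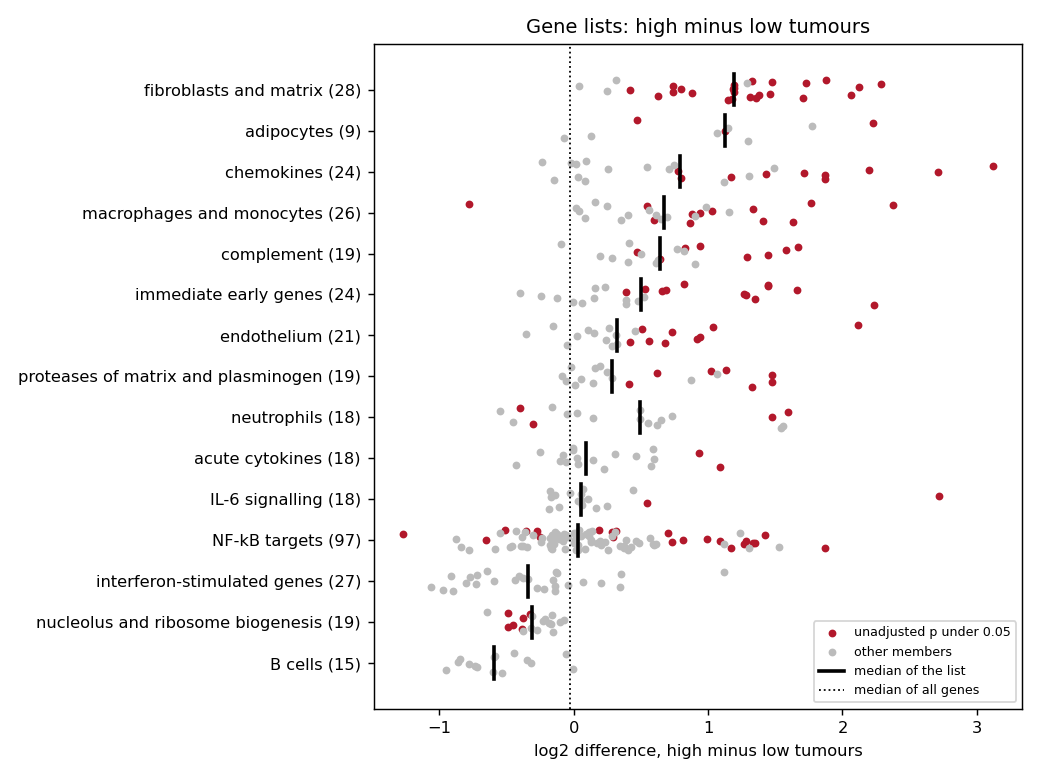
Log2 difference of each member gene, high minus low tumours (x axis), for 15 gene lists (y axis, with the number of genes measured). Red points have an unadjusted p under 0.05, black bars are list medians and the dotted line is the median of all genes (-0.03); fibroblast and matrix genes have a median of 1.19 and B cell genes one of -0.59.

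Known partners and products of the IL-6 pathway had a median log2 difference of 0.05 over 18 genes. Of these, 0 passed (limma) and 2 had an unadjusted p under 0.05 with the higher mean in the high tumours (6.01% of all genes). The mean over the list was 7.29 to 7.56 in the high and 7.16 to 7.32 in the low tumours. In the list, 3 genes averaged under 5 in the high tumours. STAT3 itself was 10.31 to 11.34 in the high and 9.81 to 10.25 in the low tumours at its brightest probeset. There the groups did not overlap (0.251% of all genes), and the log2 difference of 0.54 did not pass (SE 0.14, adjusted p = 0.126). At its other probesets the groups overlapped, with log2 differences of 0.54, 0.46 and 0.39 (adjusted p = 0.155, 0.218 and 0.404). SAA1, the acute phase protein serum amyloid A, was 9.68 to 14.26 in the high and 7.25 to 11.45 in the low tumours (log2 difference 2.72, SE 0.77, adjusted p = 0.151). The receptor genes IL6R and IL6ST, which encodes gp130, differed by -0.19 and 0.17 (adjusted p = 0.647 and 0.774), and the feedback inhibitor SOCS3 by 0.06 (adjusted p = 0.853). A dimmer probeset of SOCS3 differed by -0.28 (adjusted p = 0.397).

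Of 18 other cytokines of acute inflammation, 0 passed (limma) and the median was 0.09. Of these, 2 had an unadjusted p under 0.05 with the higher mean in the high tumours (6.01% of all genes). IL1B, an inducer of both index genes in many cells, was 8.60 in sample 5, 6.03 in sample 10 and 4.56 to 5.10 in the other 5 high tumours, against 4.28 to 4.66 in the low tumours (log2 difference 1.09, adjusted p = 0.354). IL33, an alarm cytokine of stromal cells, was 8.70 to 11.31 in the high and 8.81 to 10.00 in the low tumours (log2 difference 0.93, adjusted p = 0.240). Of 20 interleukin-1 and Toll-like receptor genes, 0 passed (limma) and the median was -0.03. An unadjusted p under 0.05 was found for 3 with the higher mean (6.01% of all genes) and 5 with the lower (7.83%). The 3 were CD14 (0.86), PYCARD (0.90) and IL1R2, the decoy receptor of interleukin-1, 2.18 higher (adjusted p = 0.149). The 5 were TLR1 (-0.90), TLR3 (-1.25), MYD88 (-0.36), IRAK3 (-0.42) and TLR9, a DNA sensor of B cells. TLR9 was 7.92 to 9.41 in the high and 9.33 to 9.76 in the low tumours (log2 difference -0.74, adjusted p = 0.135).

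The 97 measured NF-κB target genes of the study, without the index genes, had a median log2 difference of 0.03. Of them 0 passed (limma), 16 had an unadjusted p under 0.05 with the higher mean in the high tumours (6.01% of all genes) and 6 with the lower (7.83% of all genes). IER3, an early response gene against cell death, was 8.60 to 10.42 in the high and 7.56 to 8.52 in the low tumours without overlap (log2 difference 1.28, SE 0.26, adjusted p = 0.0699). The 20 NF-κB subunit and inhibitor genes had a median of -0.13, with NFKBIA, the inhibitor IκBα, 0.29 higher (adjusted p = 0.265) and the deubiquitinase CYLD at -0.38 (adjusted p = 0.215).

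Immediate early genes, which cells switch on within a short time of a stimulus, had 12 of 24 members with an unadjusted p under 0.05 and the higher mean in the high tumours (6.01% of all genes), 0 that passed (limma) and a median of 0.50. Their mean was 7.97 to 9.78 in the high and 7.77 to 8.38 in the low tumours, and high sample 18 was the top at 9.78. FOS and KLF4, transcription factors of this group, were 2.24 and 1.66 higher (adjusted p = 0.180 and 0.134). Without sample 15, 5 members passed. Without sample 18 the list median was 0.26, and without samples 5, 10 and 18 it was 0.20. Of 21 prostaglandin and leukotriene genes, a separate list, 0 passed (limma) and 4 had an unadjusted p under 0.05 with the higher mean (6.01% of all genes). The median of that list was 0.28, and 0.11 without sample 5. Without sample 15, 4 of its members passed. In it PTGES, which makes prostaglandin E2, was 8.92 to 11.45 in the high and 7.78 to 9.55 in the low tumours (log2 difference 1.55, adjusted p = 0.0938). PTGS2, the inducible cyclooxygenase, was 1.43 higher (adjusted p = 0.328).

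Endothelial genes (9 of 21 with an unadjusted p under 0.05 and a higher mean, median 0.32) and complement genes (8 of 19, median 0.64) held 0 members that passed (limma), beside a share of 6.01% of all genes with such a p. Without sample 15 these medians were 0.60 and 0.96, and 2 complement genes passed. EMCN, the endothelial sialomucin endomucin, was 7.82 to 9.26 in the high and 7.40 to 8.83 in the low tumours (log2 difference 0.92, adjusted p = 0.156). VEGFA, the angiogenic growth factor, was 9.44 to 10.67 in the high and 9.15 to 9.85 in the low tumours (log2 difference 0.72, adjusted p = 0.129). Markers of neutrophils, the cells that CXCL8 draws, had a median of 0.49, and 0 of 18 passed (limma). In each direction 2 of the 18 had an unadjusted p under 0.05 (6.01% of all genes higher and 7.83% lower). The mean of the neutrophil markers was 8.93 in high sample 5 and 6.60 to 7.43 in the other high tumours, against 6.56 to 7.47 in the low tumours. Without sample 5 the median was 0.09, and without samples 5, 10 and 18 it was 0.05.

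The 15 B cell markers had a median of -0.59, with 0 that passed and 0 with an unadjusted p under 0.05 (limma). Without sample 5 this median was -0.21, and without samples 5, 10 and 18 it was -0.14. CD79A, a signalling chain of the B cell receptor, was 10.88 to 13.25 in the high and 13.10 to 13.37 in the low tumours (log2 difference -0.60, adjusted p = 0.372). Ribosome biogenesis genes had 6 of 19 members with an unadjusted p under 0.05 and the lower mean (7.83% of all genes), 0 that passed (limma) and a median of -0.31. Without sample 18, 2 of the 19 had such a p, and without samples 5, 10 and 18, 0 had one and the median was -0.07. NOP56, a nucleolar protein of small ribonucleoproteins, was 13.32 to 14.23 in the high and 14.05 to 14.57 in the low tumours (log2 difference -0.38, adjusted p = 0.223). Of 37 DNA replication genes, 4 had an unadjusted p under 0.05 and the lower mean (7.83% of all genes), with a list median of -0.19. Of 24 mitosis genes, 0 had such a p in either direction, with a list median of -0.05. Both lists held 0 that passed (limma). The 12 germinal centre genes had a median of 0.27 and 0 that passed (limma). Of them, 1 had an unadjusted p under 0.05 and the higher mean (6.01% of all genes). BCL6, the repressor that defines germinal centre B cells, was 0.72 higher (adjusted p = 0.348). Plasma cell genes had a median close to that of all genes, and JCHAIN, the joining chain of secreted antibodies, and XBP1, a regulator of secretion, were 1.71 and 0.74 higher (adjusted p = 0.202 and 0.110). The remaining lists of dendritic, T, cytotoxic, epithelial and erythroid genes, of interferon-stimulated, protease and hypoxia genes held 0 members that passed (limma) and medians of -0.34 to 0.67.

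**Figure D4:**
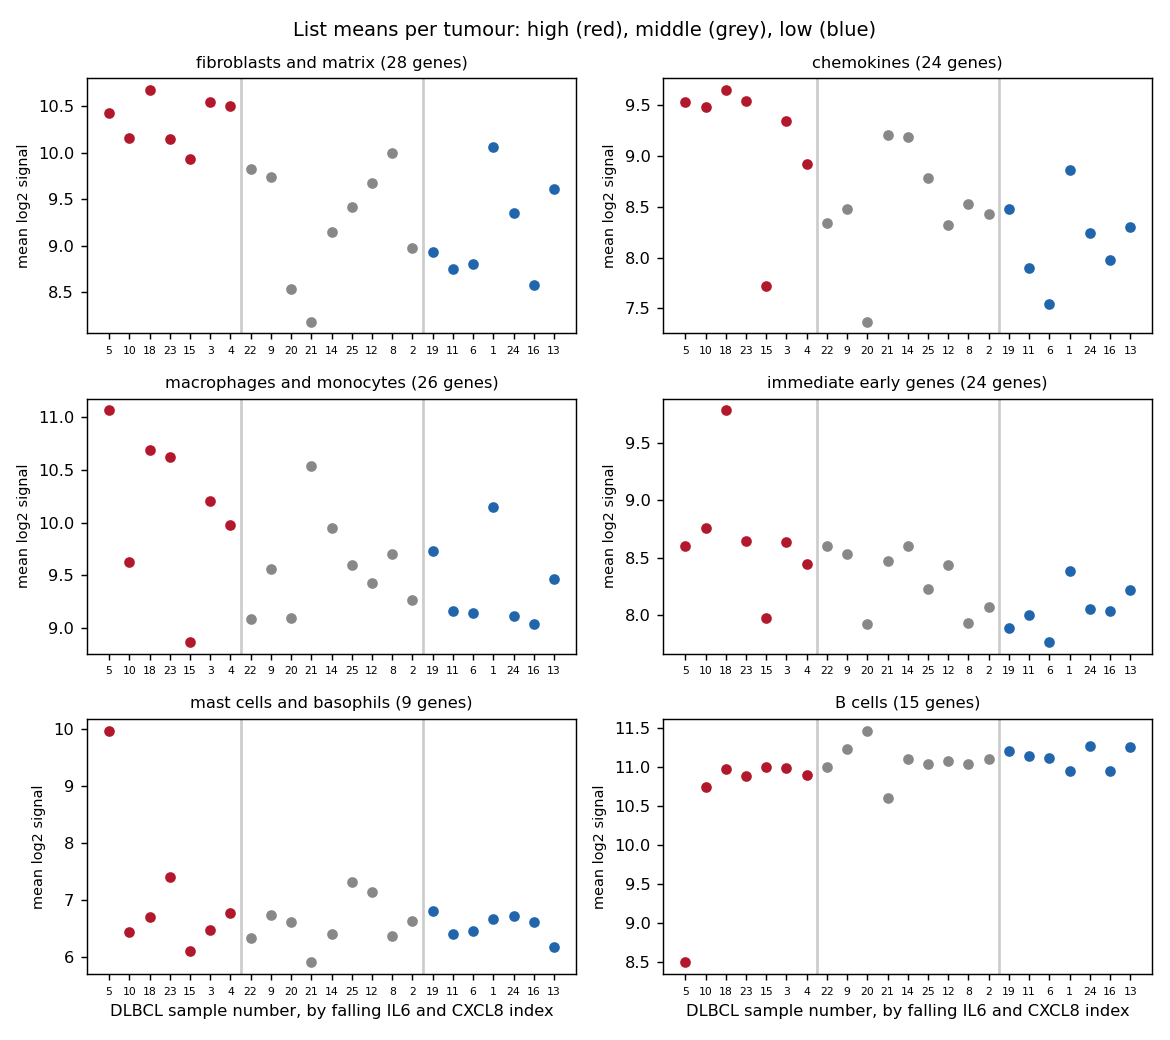
Mean log2 signal of 6 gene lists (y axis) in the 23 tumours, placed by falling index (x axis, DLBCL sample numbers) as 7 high (red), 9 middle (grey) and 7 low (blue) tumours. The fibroblast mean is 9.93 or more in every high tumour, sample 15 is lowest of the high tumours in chemokines (7.72), and sample 5 stands alone in mast cell (9.97) and B cell markers (8.50).

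Ranking the tumours by 1 index gene at a time gave partly different groups. The top 7 by the index shared 6 tumours with the top 7 by IL6 and 4 with the top 7 by CXCL8, and the top 7 by IL6 and by CXCL8 shared 3. These rankings use overlapping tumours and are set side by side only. The fibroblast and matrix list had a median log2 difference of 1.19 by the index, 1.07 by IL6 and 0.60 by CXCL8. ACTA2 was 1.18 higher by the index, 0.90 by IL6 (adjusted p = 0.287) and 0.86 by CXCL8 (adjusted p = 0.243), and PDPN was 1.73 higher by the index, 1.68 by IL6 (adjusted p = 0.103) and 0.64 by CXCL8 (adjusted p = 0.437). DOCK4 was -1.10 by the index, -1.12 by IL6 (adjusted p = 0.123) and -0.16 by CXCL8 (adjusted p = 0.883). Mitosis genes had a median of -0.05 by the index, 0.07 by IL6 and -0.70 by CXCL8. By CXCL8, 17 of the 24 mitosis genes had an unadjusted p under 0.05 and the lower mean. So did 21 of the 37 DNA replication genes, and 0 of both lists passed (limma). By IL6, 0 mitosis and 2 DNA replication genes had such a p and the lower mean. By the index 7.83% of all genes did, and the share of all genes by CXCL8 or by IL6 was not counted. In both directions, 5409 of 43031 probesets had such a p by CXCL8, 5056 by IL6 and 5784 by the index. Chemokines had medians of 0.79 by the index, 0.64 by IL6 and 0.77 by CXCL8, with 10, 7 and 9 members at an unadjusted p under 0.05 and the higher mean. Macrophage genes had medians of 0.67, 0.66 and 0.63 in the same order, with 11, 7 and 5 such members. By IL6 alone 0 probesets were higher and 2 lower (limma, 5056 with an unadjusted p under 0.05), and by CXCL8 alone 0 were higher and 1 lower (limma, 5409).

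**Figure D5:**
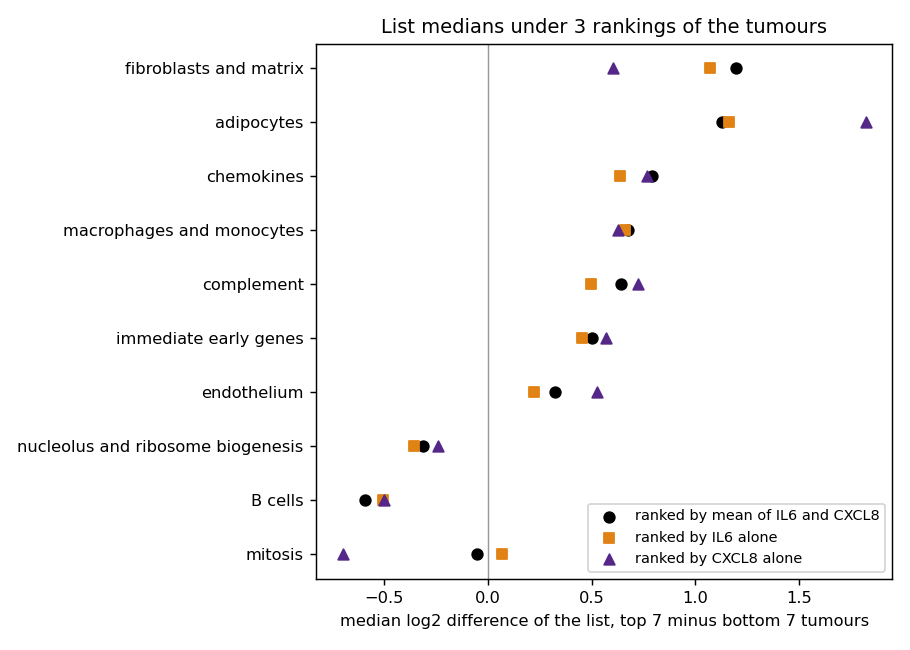
Median log2 difference of 10 gene lists (x axis) between the top 7 and bottom 7 tumours ranked by the index (black circles), by IL6 alone (orange squares) and by CXCL8 alone (purple triangles). The fibroblast median is 1.19, 1.07 and 0.60, and the mitosis median -0.05, 0.07 and -0.70 in that order of rankings.

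Over all 23 tumours, 711 of 43031 probesets rose and 856 fell with the index taken as a continuous measure (limma, adjusted p under 0.05). Of the 28 fibroblast and matrix genes, 8 were among those that rose. With 1 array per dog, sample 12 being left out, 592 probesets rose and 695 fell, with 7 of the 28 genes among them. The share of all genes that passed was not counted in these 2 fits. Without samples 5, 10 and 18, whose index was 9.99 or more, 0 rose and 0 fell (limma, 3385 with an unadjusted p under 0.05). The 10 genes with the highest positive correlation with the index over the 23 arrays of 22 dogs were AHNAK (Pearson r = 0.83, n = 23), NRP2 (0.83), PDGFD (0.82), SPRY1 (0.82), SRGN (0.81), MAP4K3 (0.79), CDC42EP3 (0.79), RAB1A (0.79), PICALM (0.78) and CD99 (0.78). TLR9, among the genes named above, had a negative one (r = -0.79, n = 23). Taken 1 index gene at a time, r with IL6 was 0.36 (CD99) to 0.61 (CDC42EP3) for these 10 genes. With CXCL8 it was 0.63 (CDC42EP3) to 0.88 (AHNAK), and each of the 10 had the higher r with CXCL8. For TLR9 r was -0.45 with IL6 and -0.75 with CXCL8. All tumours share 1 normalization, and the values are a description. Over the 20 tumours left without samples 5, 10 and 18, r was 0.63 for AHNAK, 0.71 for NRP2 and 0.56 for PDGFD. AHNAK, a large scaffold protein, was 6.59 to 8.72 in the high and 6.57 to 6.84 in the low tumours. SRGN, the serglycin that packs granules of blood cells, was 10.25 to 12.63 in the high and 9.58 to 10.54 in the low tumours. CD99, a leukocyte adhesion glycoprotein, and CDC42EP3, an effector of the GTPase CDC42, had no overlap between the groups (log2 differences 0.95 and 0.97, adjusted p = 0.125 and 0.0666).

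The middle tumours showed how far the stromal genes tracked the index. Sample 22, just outside the high group, had ACTA2 at 11.38 and TAGLN at 12.54, among the highest of all tumours. Sample 20, with IL6 at 10.85, had ACTA2 at 8.99 and TAGLN at 10.40, below the median of the low tumours in both. Over the 9 middle tumours ACTA2 was 8.67 to 11.38 (median 10.37) and EDNRA 7.07 to 8.79 (median 8.09), so that they reached from below the low tumours' lowest ACTA2 almost to the high tumours' highest. The mean of the fibroblast and matrix list was 8.18 to 10.00 (median 9.42) in them.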

How the data were processed

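RNA of canine lymph nodes was hybridised to 33 Affymetrix Canine Genome 2.0 arrays. The values deposited by the authors are log2 signals, 1 per probeset and array, made by RMA (Affymetrix Expression Console, with no version stated in the labels). RMA normalizes probe signals across arrays and compresses the differences of dim probesets. The deposited values ran from 2.2 to 15.49 with array medians of 6.85 to 6.97, and 0 columns were left unused. Of 43035 probesets, 29264 had 1 symbol in the platform table, 439 several and 13332 none, which gave 15115 genes. The number of arrays limits the precision.

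Groups came from the labels and, for high and low tumours, from the ranking by IL6 and CXCL8. The members and lists were chosen with earlier results of these data known. All probesets of 14 arrays were fitted with limma 3.58.1 in R 4.3.3, with Benjamini-Hochberg adjustment over all of them. The 4 probesets of IL6 and CXCL8 stayed in the fit and were left out of counts. RIN and age were compared by exact permutation over 3432 splits. The fit was tested on simulated data.

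Genes were named by a rule: those that passed without overlap, up to 4 passing members of each of 30 lists or the 2 of smallest p, the 10 with the highest positive correlation with the index, and, as fewer than 10 passed, the 20 of smallest p. Other members are examples that did not pass. Alternatives were other splits and rankings, covariates, array day as a block, filters, scalings, array weights and leaving out arrays. Members of the 2 extraction batches were not assigned here, so that this batch was not tested. The 14 arrays came from 14 dogs, so that p-values measure the spread between dogs.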

Additional observations from a re-analysis of the deposited data

Results flagged for a closer look

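In groups of 7 tumours, 1 tumour lay far from the nearest of the others in 13 of 122 checks, of which chance alone gives about 5%. High sample 5 was the highest high tumour in neutrophil markers (8.93, others 6.60 to 7.43), mast cell and basophil markers (9.97, others 6.11 to 7.40) and proteases of matrix and plasminogen (7.60, others 6.50 to 6.95), and the lowest in B cell markers (8.50, others at least 10.75). High sample 15 was the lowest high tumour in chemokines (7.72, others 8.92 to 9.65) and in endothelial genes (8.05, others 8.76 to 9.29). High sample 4 and low sample 24 were the highest of their groups in skeletal muscle markers (9.13, others 6.18 to 7.27, and 10.91, others 6.42 to 7.04). Low sample 13 was highest in neutrophil markers (7.47, others 6.56 to 6.87), low sample 1 in proteases (6.81, others 6.20 to 6.47) and low sample 19 in T cell markers (8.48, others 6.90 to 7.58). For the single genes checked, PLSCR5 was lowest in high sample 23 (4.70, others 5.04 to 5.21), and FSTL1 was highest in high sample 18 (11.78, others 10.70 to 11.11). Of the 122 checks, 60 were of list means, and the rest covered only part of the 85 named genes. Genes outside the checks also had a tumour far from the others. In high sample 5, MS4A2 was 12.02 (others 6.05 to 7.27) and CD79A was 10.88 (others 12.72 to 13.25).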

How the results depend on the processing

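The main counts were 5 probesets higher and 1 lower. No probeset passed in either direction with the spread taken from 23 arrays in 3 groups, with 11 against 11, in both of these without sample 12, in naive tumours alone, in the arrays of known day without a block or with the continuous index over 20 tumours (0 and 0; limma, at least 3385 probesets at an unadjusted p under 0.05 in each). The continuous index over 23 tumours gave 711 and 856, 592 and 695 with sample 12, the second array of 1 dog, left out, and array weights 166 and 59. Only 1 was higher and 0 lower with 5 against 5, with previous chemotherapy as a covariate, and without samples 5 and 18 or samples 5, 10 and 18. RIN as a covariate gave 6 and 0, the array day block 1 and 1, IL6 alone 0 and 2, CXCL8 alone 0 and 1, and quantile normalization 6 and 2. Leaving out each tumour gave 0 to 409 higher and 0 to 92 lower. The cause of these shifts was not tested. The filter on dim probesets, centring on the median, scaled index genes (the same 14 tumours) and a fold over 2 kept both counts within 1.5 times. Leaving out 1 tumour was not applied to RIN and age, whose differences of -0.114 and 2.31 years kept their side of the threshold with 5 and 11 tumours a group. Among the named genes, 3 changed sign in 1 analysis each: ARG1 at 0.01 with all its probesets averaged, AURKB at -0.41 by CXCL8 alone and DSP at -0.002 in naive tumours. Samples 5, 10 and 18 were left out together, the 20-tumour analysis and those without sample 12 were made and arrays of known day were fitted without a block after the data were seen. Averaging or leaving out the 2 arrays of 1 dog did not apply to the 14 tumours, which hold only 1 of them. No paired analysis was possible because the sample numbers that healthy and DLBCL arrays share name different dogs, and high and low tumours share none.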

Other observations

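Samples 15 and 20 had the highest IL6 of the 23 tumours (11.13 and 10.85). Sample 15 had the lowest mean of the macrophage and monocyte list (8.87, with 9.09 in sample 20), and sample 20 the lowest mean of the chemokine list (7.37, with 7.72 in sample 15). They differed in the fibroblast and matrix list, at 9.93 in sample 15 and 8.53 in sample 20. Middle sample 21 had the lowest fibroblast and matrix mean of all tumours (8.18) together with a high STAT3 (11.35) and SAA1 (14.25), beside 11.34 and 14.26 in high sample 5. Its mean over germinal centre genes was the highest of the 23 tumours.

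The high minus low difference was also compared between relapsed (3 and 2) and naive (4 and 5) tumours with an interaction term. No probeset passed (limma, 0 at an adjusted p under 0.05, 1251 at an unadjusted p under 0.05).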
